A study of Mus musculus with 2 samples.

Results

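Open chromatin was described at the genes that encode the proteins of the mitochondrial ribosome, in primary mouse megakaryocytes. The genes were chosen by name: every protein-coding gene of the mouse annotation (GENCODE M21, genome build mm10) whose symbol is Mrpl or Mrps followed by a number, which gave 78 of 21755 protein-coding genes, 49 Mrpl and 29 Mrps. 5 pseudogenes with such symbols were left out. ATAC-seq, in which a transposase cuts and tags accessible DNA, was run on 2 biological replicates of 50000 cells each, from adult male C57BL/6J mice aged 5 to 6 weeks. These animals carry no stated allele or treatment, both samples share 1 donor record, and replicate 2 alone has sequencers listed in its label. There was 1 group and no control cell type, so no comparison between groups was possible and no p-value was computed.

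Mitochondria carry their own ribosome, which translates the few proteins that mitochondrial DNA encodes, all of them subunits of the oxidative phosphorylation complexes. Its RNA comes from mitochondrial DNA, but every ribosomal protein is made from a nuclear gene, translated in the cytosol and imported. Mrpl genes are named for the large subunit, which joins amino acids, and Mrps genes for the small subunit, which reads the messenger RNA. Promoters of such nuclear genes for mitochondrial proteins are known for sites of NRF1, a factor that drives respiratory genes, of ETS factors such as GABP, of YY1 and of SP/KLF factors. Many lie at CpG islands, and many are divergent, meaning that a second gene starts close by on the other strand.

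The regions that carry the account below are the promoter summits, the points of highest signal, and the sequences under the most open of them are shown first. For each of 4 motifs, the 3 genes of highest fold enrichment that hold it are given from the GRCm38 (mm10) reference genome. They read 5′ to 3′ on the strand of the gene, with the match nearest the summit in capitals. The Mrpl15 stretch holds a further SP/KLF match in lower case. Stretches inside annotated exons were kept to 30 bases.
Mrps21, NRF1, chr3:95871586-95871615, minus strand: ggaaagtccaGCGCCTGCGCtcagcaccga
Mrps33, NRF1, chr6:39810868-39810897, minus strand: ttccggggacGCGCGTGCGCgaggtcagga
Mrpl45, NRF1, chr11:97315721-97315750, plus strand: tggagagcgtGCGCGTGCGCgcgactcacc
Mrps27, ETS, chr13:99344701-99344780, plus strand: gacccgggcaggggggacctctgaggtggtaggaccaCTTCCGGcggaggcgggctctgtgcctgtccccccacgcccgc
Mrpl42, ETS, chr10:95501820-95501899, minus strand: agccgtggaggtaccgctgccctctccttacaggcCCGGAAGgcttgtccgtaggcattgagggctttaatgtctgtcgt
Mrpl20, ETS, chr4:155803601-155803630, plus strand: ctgaccgttgacCCGGAAGcgcttctggca
Mrpl35, YY1, chr6:71823743-71823772, minus strand: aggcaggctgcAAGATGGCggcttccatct
Mrps27, YY1, chr13:99344789-99344818, plus strand: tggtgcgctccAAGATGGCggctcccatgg
Mrpl42, YY1, chr10:95501904-95501933, minus strand: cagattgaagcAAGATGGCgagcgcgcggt
Mrpl15, SP/KLF, chr1:4785730-4785809, minus strand: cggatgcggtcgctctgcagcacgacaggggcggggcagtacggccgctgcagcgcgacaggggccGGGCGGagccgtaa
Mrpl42, SP/KLF, chr10:95501997-95502076, minus strand: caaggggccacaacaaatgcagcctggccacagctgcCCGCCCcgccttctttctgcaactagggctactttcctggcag
Mrps33, SP/KLF, chr6:39810979-39811058, minus strand: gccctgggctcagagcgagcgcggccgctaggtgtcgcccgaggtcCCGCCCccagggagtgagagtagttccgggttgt
The Mrpl42 promoter holds 3 of the 4 motifs, with the SP/KLF match at −96 bp, the YY1 match at 22 bp and the ETS match at 79 bp from the start. In all 3 YY1 stretches the match reads in the direction of the gene and lies within 22 bp after its start.

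The deposited lists held 108744 peaks for replicate 1 and 114484 for replicate 2 on chromosomes 1 to 19 and X, merged to 79800 and 81707 regions, of which 69539 were shared. No read totals were available, so the depth behind the values is unknown. The labelled cell type was checked against marker genes: of 16 megakaryocyte markers 7 had an open promoter (Itga2b, Nfe2, Vwf, Itgb3, Gata1, Pf4 and Fli1), of 8 neutrophil markers 7 (all but Elane), of 6 erythroid markers 3, and of 5 hepatocyte and 5 neuronal markers 0. Among genes that define megakaryocytes and platelets, Gp5 and Ppbp had no promoter peak in either replicate, Gp1ba had one in replicate 1 alone and Gp9 in replicate 2 alone, so the marker check does not single out megakaryocytes. The part of other cells in the values below was not tested.

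All 78 mitochondrial ribosomal protein genes had a promoter region in both replicates. A promoter counted as open where a region shared by the replicates lay within 500 bp of any transcript start, which held for 59.8% of all protein-coding genes (13004 genes). The 78 genes had 77 distinct regions, because Mrpl46 and Mrps11 share 1, and lie on 17 chromosomes, with 11 genes on chromosome 11 and 8 on chromosome 17. In the deposited lists these promoters accounted for 204 peaks in replicate 1 and 201 in replicate 2, since a wide region can hold several summits. With the stricter lists thresholded on the irreproducible discovery rate, 75 promoters were open in both replicates, beside 53.0% of all protein-coding genes. Those of Mrps34 and Mrps10 were missing in replicate 1 and that of Mrps17 in replicate 2.

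The strength of a region was its fold enrichment, the ratio of its signal to the local background that the authors deposited, taken as the mean of the 2 replicates. The median over the 78 genes was 14.5, with 14.7 in replicate 1 and 14.4 in replicate 2, beside 11.5 over all open promoters. Single genes ran from 4.64 to 22.4. In bulk cells, a region open in fewer cells and one less accessible in each cell cannot be told apart. Of the 78 genes, 62 were at or above the median of open promoters. The upper quartile of open promoters, which by construction holds 25% of them, started at 14.3 and held 42 of these genes (53.8%). In the upper decile, which holds 10% and started at 16.5, there were 22. The plot of all genes by replicate shows a gradual slope down to Mrps5 (mean 8.04), with Mrps34 (mean 4.64) well below it.

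**Figure D1:**
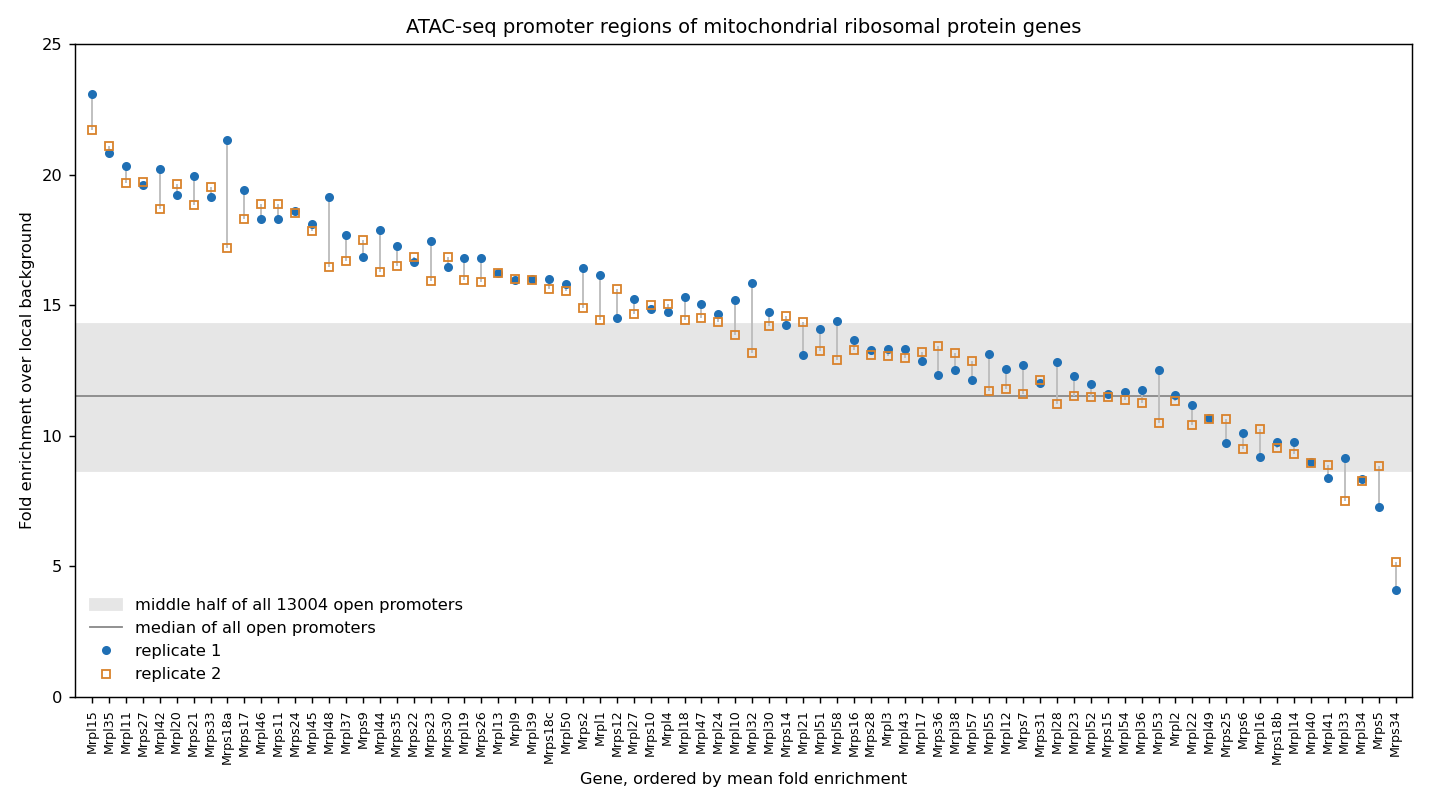
Fold enrichment over local background (vertical axis) at the promoter of each of the 78 genes, ordered by mean (horizontal axis), in replicate 1 (filled circles) and replicate 2 (open squares), joined by a line. The grey band runs from the lower to the upper quartile of the 13004 open promoters (8.66 to 14.3) and the line marks their median (11.5). Most genes lie above that line, and Mrps34 (4.11 and 5.16) stands lowest.

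The 8 most open promoters belonged to genes of both subunits. Mrpl15, which encodes a ribosomal RNA-binding protein of the large subunit, had 23.1 in replicate 1 and 21.7 in replicate 2 (22.4 ± 1.0, SD, n = 2), at chr1:4785269-4786311. It was higher in both replicates than every other gene of the set. Mrpl35, another large-subunit protein of bacterial origin, had 20.8 and 21.1. Mrpl11, part of the site where translation factors dock, had 20.3 and 19.7. The replicate values of Mrpl35 and Mrpl11 do not overlap each other or those of Mrpl15. Mrps27, a small-subunit protein with RNA-binding pentatricopeptide repeats, had 19.6 and 19.7. Mrpl42, which has no bacterial counterpart, had 20.2 and 18.7. Mrpl20, which binds the large ribosomal RNA early in assembly, had 19.2 and 19.7. The values of these 3 genes overlap. Mrps21, a bacterial-type small-subunit protein, had 19.96 and 18.8, and Mrps33, specific to mitochondria, had 19.1 and 19.5, so their order is not resolved either.

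At the other end, the 8 least open genes ranked at or below percentile 33.0 of open promoters. Mrps34, a mitochondria-specific protein of the small subunit, had 4.11 and 5.16 (4.64 ± 0.74, SD, n = 2), in the lowest 3.09% of open promoters. No other gene of the set fell below 7.26 in either replicate. Mrps5, a bacterial-type protein near the messenger RNA channel, had 7.26 and 8.83, and Mrpl34, a small protein of the large subunit, 8.33 and 8.28. Mrpl33, also of bacterial type, had 9.13 and 7.48. The values of these 3 genes overlap. Mrpl41 had 8.36 and 8.87, and Mrpl40 8.99 and 8.95; both are large-subunit proteins specific to mitochondria. Mrpl14, at the interface of the subunits, had 9.74 and 9.30, and Mrps18b 9.75 and 9.51. Mrps18b is 1 of 3 paralogues, and these differed: Mrps18a had 21.3 and 17.2, Mrps18c 16.0 and 15.6.

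By symbol, the median was 15.7 over the 29 Mrps genes and 13.7 over the 49 Mrpl genes. Sorted by origin of the protein, a grouping made after the values were seen, the 30 Mrpl genes of bacterial families had a median of 14.5. The 19 Mrpl genes specific to mitochondria had 13.7. Among the Mrps genes, the 18 of bacterial families had 15.0, and the 11 specific to mitochondria 16.6. The last group holds both Mrps27 and the lowest gene of all, Mrps34, so its genes spread over nearly the whole range. Symbols do not always match the protein's place: the products of Mrps30 (16.5 and 16.8) and Mrps18a are found in the large subunit. The product of Mrps36 (12.3 and 13.4) works in the 2-oxoglutarate dehydrogenase complex.

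Nearly all genes of the other mitochondrial lists had an open promoter, with medians on either side of that of the set. The lists cover mitochondrial translation, the upkeep of mitochondrial DNA and regulators of mitochondrial genes. All 5 mitoribosomal proteins with other symbols were open, with a median of 10.6, from Dap3 (8.78 and 8.71), a GTP-binding protein of the small subunit, to Ptcd3 (16.4 and 15.3), followed by Gadd45gip1 (14.8 and 13.6). All 14 matched genes in the list of mitochondrial translation factors, which takes in Oxa1l and Trmt10c, were open, with a median of 15.5. Among them Tsfm, the exchange factor of the elongation factor, had 23.4 and 22.2, and Trmt10c, a transfer RNA methyltransferase subunit, 19.9 and 19.8. All 22 genes listed as mitochondrial aminoacyl-tRNA synthetases were open, with a median of 15.3, led by Lars2 (18.5 and 18.4) and Hars2 (18.3 and 18.0). That list takes in Qrsl1, Gatb and Gatc, which encode subunits of an amidotransferase and not synthetases. All 24 matched genes of mitoribosome assembly were open, with a median of 13.8, led by the RNA helicase Dhx30 (19.9 and 19.8) and Fastkd2 (20.1 and 18.7). The list of genes that maintain or transcribe mitochondrial DNA also holds regulators of nuclear genes. These are Nrf1, Gabpa, Gabpb1, Yy1, Ppargc1a, Ppargc1b and Esrra. Of the 19 genes in that list 18 were open, with a median of 12.3. Mterf1a had 19.8 and 18.7 and the mitochondrial RNA polymerase Polrmt 17.4 and 17.8. The exception was Ppargc1a, the coactivator known for inducing mitochondrial genes, which had no region in either replicate.

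Cytosolic ribosomal protein genes, the counterparts of the set outside the mitochondrion and chosen by symbol (Rpl or Rps and a number), were open at 75 of 82. Kinases with Rps6k symbols and names with an l right after the number were left out of this list beforehand. The symbols take in Rps19bp1, which encodes a partner of a ribosomal protein and not a ribosomal protein. Without it 74 of 81 were open. The 7 without a region are 6 pseudogene-like entries annotated as coding (Rpl10-ps3, Rpl36-ps4, Rpl36a-ps1, Rpl9-ps1, Rpl9-ps6 and Rps12-ps3) and Rps27rt. The median of the list was 13.6 with and without Rps19bp1, and the most open were Rpl31 (19.9 and 18.2) and Rps10 (18.6 and 18.7). In the upper decile of open promoters there were 8 of them, beside 22 of the mitochondrial set. The cumulative plot shows both sets to the right of all open promoters over most of the range. In the upper tail the cytosolic curve meets that of all open promoters, while the mitochondrial curve stays to its right.

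**Figure D2:**
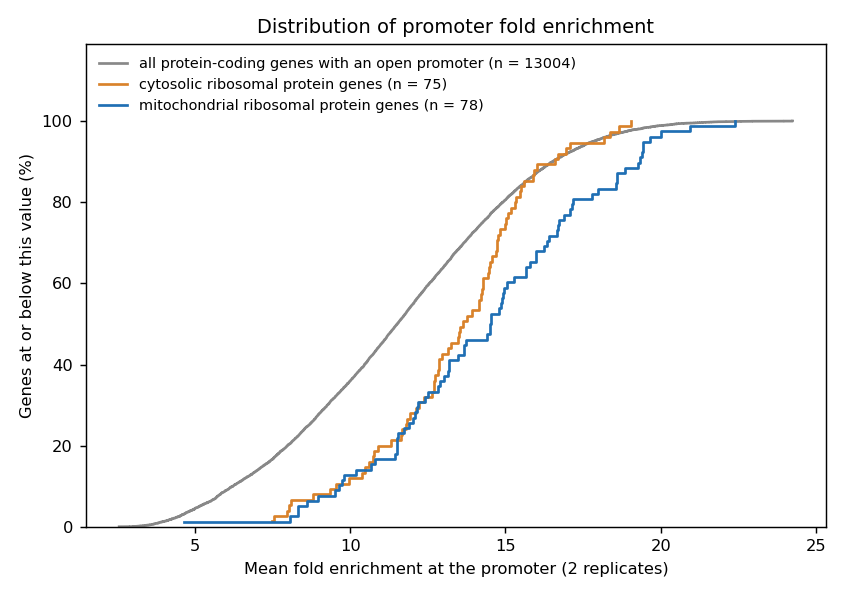
Share of genes (vertical axis, percent) whose mean promoter fold enrichment over the 2 replicates is at or below the value on the horizontal axis, for all 13004 open promoters (grey), 75 cytosolic (orange, Rps19bp1 included) and 78 mitochondrial (blue) ribosomal protein genes. Medians are 11.5, 13.6 and 14.5.

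Most summits lay close to a start. The median width of the promoter regions was 912 bp, beside 873 bp over all open promoters, from 504 bp at Mrpl22 to 1690 bp at Mrpl41. The summit lay at a median of −22.5 bp from the nearest start (minus is upstream). It was within 50 bp of a start at 52 genes (66.7%, beside 47.3% of open promoters) and within 100 bp at 68 (87.2%, beside 69.3%). At 57 genes (73.1%) it was upstream, beside 74.4% of open promoters. The most distant summits were those of Mrps18b, at −422 bp, and Mrpl47, at 315 bp. A single region at all starts of the gene was found for 70 genes (89.7%, beside 76.0% of open promoters).

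**Figure D3:**
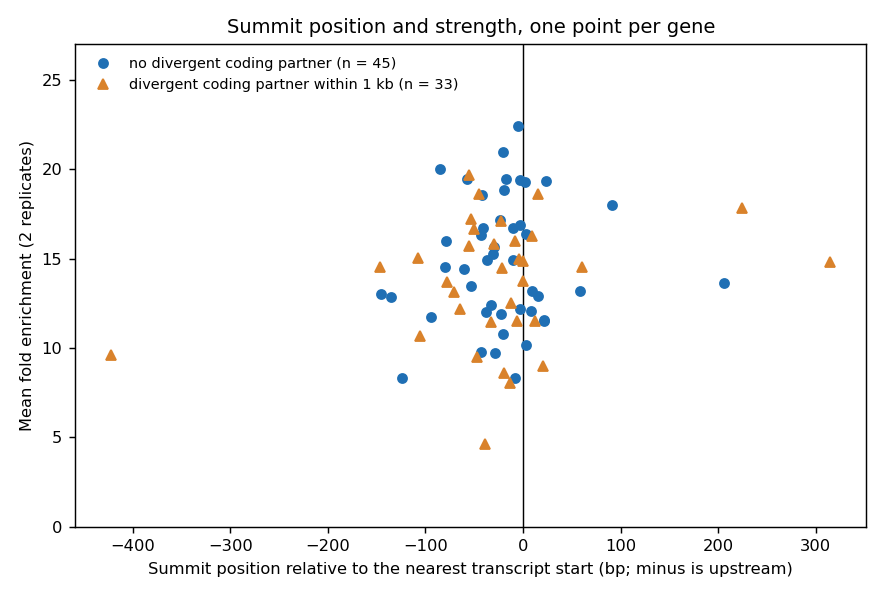
Summit position relative to the nearest transcript start (horizontal axis, bp, minus is upstream) against mean fold enrichment over the 2 replicates (vertical axis), 1 point per gene, for 45 genes without (circles) and 33 with (triangles) a divergent coding partner within 1 kb. Points crowd within 100 bp of the start (68 of 78 genes), and the outlying points at −422 and 315 bp are Mrps18b and Mrpl47.

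At 4 genes the strongest region was not at the annotated 5′ end but at an internal start (5.13%, beside 14.7% of open promoters). Mrpl35 was open 3.21 kb inside the gene and Mrps24, a small-subunit protein, 7.99 kb inside (18.6 and 18.5). Neither had a region at the 5′ end. At Mrpl48 the internal region, 25.2 kb from the 5′ end, had 19.1 and 16.5, and the region at the 5′ end 13.5 and 13.2. The internal region of Mrpl33, 17.0 kb inside, had 9.13 and 7.48 against 7.41 and 8.97 at the 5′ end, so for Mrpl33 the replicates disagree on which start was stronger.

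CpG content was high. The ratio of observed to expected CpG, from 250 bases before to 50 after the 5′ end, had a median of 0.82, beside 0.73 over open promoters, while GC content was 57.7% beside 59.3%. Open promoters whose ratio lay between the quartiles of these 78 genes had a median fold enrichment of 12.4, between the value of all open promoters (11.5) and that of the set (14.5). Across the 78 genes, Spearman's rho of fold enrichment with the CpG ratio was −0.14 and with region width 0.0092; across all open promoters, neighbours included, the values were 0.19 and 0.23. The CpG ratio was taken at the annotated 5′ end and fold enrichment at the strongest region. At 4 genes (5.13%, beside 14.7% of open promoters) that region was not at the 5′ end. Mrpl35, 1 of the 4, entered with a ratio of 0. These are descriptions across genes, which share libraries and base composition.

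Divergent partners were common. A protein-coding gene started within 1 kb on the other strand at 33 of the 78 genes (42.3%), beside 10.9% of all protein-coding genes and 17.3% of those with an open promoter. This is a property of the annotation and not of the cells. It held for 24 of 49 Mrpl and 9 of 29 Mrps genes. In 32 cases the strongest region lay within 500 bp of a start of both genes. The exception was Mrpl48, whose strongest region lies far from Rab6a, a GTPase of Golgi transport. Starts overlapped in 15 cases and lay apart in 18, of which 16 were at most 200 bp apart. Fold enrichment did not follow partnership within the set: the median was 14.5 with and 14.5 without a partner, beside 12.5 and 11.3 over open promoters.

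Several partners also act in mitochondria. Mrps27 starts 81 bp from Ptcd2, a pentatricopeptide protein of mitochondrial RNA. Mrps12, a protein of the decoding site (14.5 and 15.6), starts 172 bp from Sars2, the mitochondrial seryl-tRNA synthetase. Mrpl43 (13.3 and 13.0) overlaps the start of Twnk, the helicase that unwinds mitochondrial DNA. Mrpl47 (15.0 and 14.5) is paired with Ndufb5 and Mrpl36 (11.8 and 11.2) with Ndufs6, both subunits of respiratory complex I. Other partners have roles elsewhere, such as Psma2 of the proteasome beside Mrpl32, Tcp1 of the cytosolic chaperonin beside Mrpl18, Hira, a histone chaperone, beside Mrpl40, and Fau, which encodes a cytosolic ribosomal protein, beside Mrpl49. Those examples were picked after the pairs were seen, for their known roles. Mrpl37 (17.7 and 16.7), a mitochondria-specific protein, starts 120 bp from Cyb5rl.

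In 1 pair both genes encode mitochondrial ribosomal proteins: Mrpl46, of the large subunit, and Mrps11, of the small subunit, share the region chr7:78782653-78783781 (18.3 and 18.9), with annotated 5′ ends that overlap (gap of −412 bp). The YY1 match under it is shown once on each strand, since both genes hold it.
Mrpl46, chr7:78783013-78783042, minus strand: gggaagacagaAAGATGGCggcgcccgtag
Mrps11, chr7:78783013-78783042, plus strand: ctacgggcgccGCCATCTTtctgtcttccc
It lies 62 bp after the start of Mrpl46 and at −92 bp from that of Mrps11. The region of Mrps6 (10.1 and 9.49) is also shared, with Slc5a3 and Gm49711, which start on the same strand.

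For 16 motif patterns, matches on either strand within 100 bp of the summit were counted, and each share is set beside that of all 13004 open promoters. A match is a string of letters and does not show that a factor was bound. NRF1 (GCGC, any base, then TGCGC) matched at 12 genes (15.4%, beside 7.88%), ETS (CCGGAAG) at 29 (37.2%, beside 17.1%) and YY1 (AAGATGGC) at 12 (15.4%, beside 4.31%). SP/KLF (GGGCGG) matched at 39 (50%, beside 60.2%) and NFY (CCAAT) at 23 (29.5%, beside 32.9%). The first 3 patterns were thus more frequent than in the background, and the last 2 were not. An NRF1 or an ETS match was present at 37 genes (47.4%, beside 23.6%), and both at 4 (5.13%, beside 1.41%), Mrps21, Mrps33, Mrps26 and Mrpl57. Closer to the summit, within 50 bp, NRF1 matched at 5 genes (beside 4.14%) and YY1 at 6 (beside 1.69%).

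**Figure D4:**
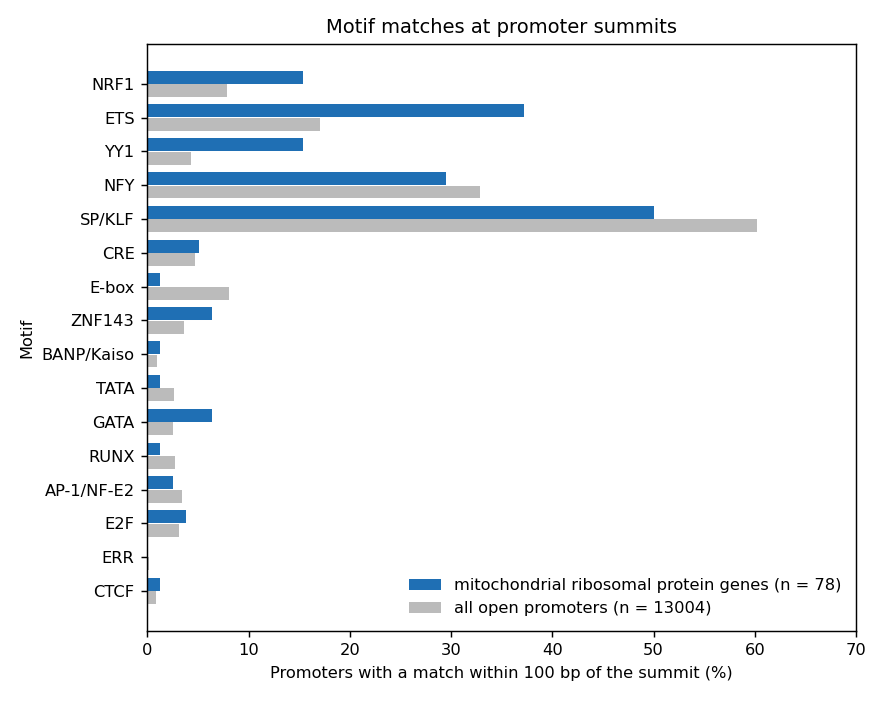
Percent of promoters with at least 1 match within 100 bp of the summit (horizontal axis) for 16 motif patterns (vertical axis), in the 78 mitochondrial ribosomal protein genes (blue) and in all 13004 open promoters (grey). The blue bars are longer for NRF1, ETS and YY1 (15.4, 37.2 and 15.4%) and shorter for SP/KLF (50%) and E-box (1.28%).

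Of the 4 motifs whose sequences are shown, YY1 had the widest gap in fold enrichment between genes with and without a match. The 12 genes with a YY1 match had a median of 18.6 and the other genes 13.7, beside 13.9 and 11.4 over open promoters. The 7 most open of the 12 lie at 6 distinct promoters, those of Mrpl35, Mrps27, Mrpl42, Mrps18a and Mrps24 and the region shared by Mrpl46 and Mrps11, and 17.2, in Mrps18a, was their lowest value in either replicate. For NRF1 the medians were 16.0 with and 14.5 without a match. For SP/KLF they were 14.4 with and 14.5 without. For ETS they were 13.2 with and 14.8 without, whereas over open promoters the holders were higher (13.5 against 11.1). The ETS holders span the set, from Mrps27 and Mrpl42 down to Mrps34, the least open gene.

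Of the other patterns, the E-box (CACGTG) matched at 1 gene, Mrpl54 (1.28%, beside 8.07%), and the GATA pattern (AGATAA) at 5 (6.41%, beside 2.51%), Mrps17, Mrps18c, Mrps14, Mrpl28 and Mrpl16. GATA factors act in megakaryocytes, and all 5 matches lay upstream of the start, from −112 to −70 bp. ZNF143 (ACTACAA) matched at 5 genes (6.41%, beside 3.66%), the cyclic AMP response element (TGACGTNA) at 4 (5.13%, beside 4.74%) and E2F (TTCCCGCC, whose letters can overlap the SP/KLF pattern) at 3 (3.85%, beside 3.15%). AP-1/NF-E2 (TGANTCA) matched at 2 genes (2.56%, beside 3.43%), Mrpl33 and Mrps5, both among the least open. RUNX (TGTGGTT) matched at 1 gene, Mrpl52 (1.28%, beside 2.78%). The TATA box pattern matched at Mrpl16 alone (beside 2.65%), that of BANP/Kaiso at Mrpl57 alone (beside 0.984%), and the strict CTCF pattern at Mrpl38 alone (beside 0.9%). The pattern of the oestrogen-related receptors, ERR (TCAAGGTCA), matched at 0 genes (beside 0.169%). Counts of 5 or fewer are too small to order the patterns.

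The replicates gave nearly the same values. By fold enrichment, replicate 1 was higher at 52 of 78 genes (66.7%, beside 62.6% of open promoters). The median log2 ratio of replicate 2 over replicate 1 was −0.03 (beside −0.04), and 73 genes (93.6%, beside 91.4%) agreed within 1.2-fold. Across the 78 genes the replicates had a Spearman's rho of 0.97 (beside 0.97 over open promoters), a description over regions of the same 2 libraries. The highest ratios were those of Mrps34 (log2 0.33), Mrps5 (0.28) and Mrpl16 (0.16), all among the 9 least open promoters of the set, and the lowest those of Mrps18a (−0.31), Mrpl33 (−0.29) and Mrpl32 (−0.27). Summits shifted by a median of 6 bp (beside 7 bp over open promoters), and by at most 20 bp at 74 genes (94.9%, beside 85.1%). The exceptions were Mrps28 (325 bp), Mrps5 (210 bp), Mrps14 (56 bp) and Mrpl47 (42 bp).

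Distal regions, those with no part within 1 kb of any annotated start, numbered 257 within 50 kb of the genes, out of 48720 in all. Each gene had a median of 3 (mean 3.33), beside a median of 4 (mean 4.82) for open promoters and a mean of 3.67 for all protein-coding genes. No distal region was found near Mrps24, Mrpl39, Mrpl3 and Mrpl41 (5.13%, beside 7.44% of open promoters), and 5 or more near 23 genes (29.5%, beside 44.3%). The set was thus not richer in distal regions than other open genes. Their fold enrichment had a median of 7.12, as over all distal regions (7.12). By place, 118 lay in introns, 30 in exons and 109 between genes.

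Most of these regions lie closer to another gene. A mitochondrial ribosomal protein gene was the nearest coding gene for 73 of the 257 (28.4%), and 41 of the 78 genes (52.6%, beside 33.5% of open promoters) were nearest to no distal region at all. The genes also have more neighbours, with a median of 3 coding starts within 50 kb beside 2 for open promoters. Mrps15, a bacterial-type small-subunit protein, had the most distal regions, 9, but 6 of them are nearest to Csf3r, the receptor for the granulocyte growth factor, and the other 3 to Oscp1. With 8 each followed Mrps35, Mrps23, Mrpl14 and Mrpl33. They were the nearest gene for 3, 3, 2 and 3 regions. Only 3 regions lay near a pair of members, Mrpl46 and Mrps11.

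**Figure D5:**
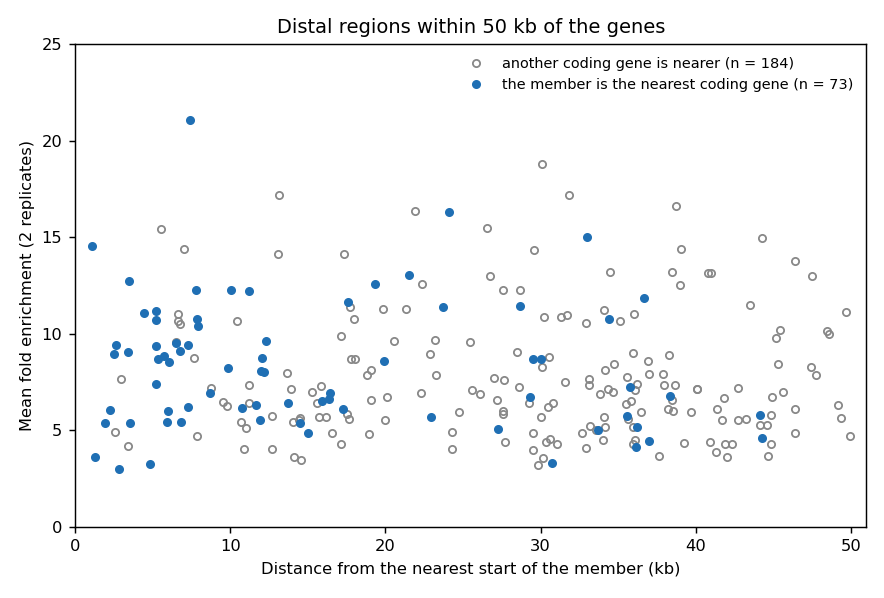
Distance to the nearest start of the gene (horizontal axis, kb) against mean fold enrichment over the 2 replicates (vertical axis) for the 257 distal regions, filled where the mitochondrial ribosomal protein gene is the nearest coding gene (73) and open where another is nearer (184). The highest point, at 7.39 kb, is the intronic region of Mrps27, and filled points crowd within 10 kb (32 of 46 regions).

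The strongest distal region lay inside the set, in an intron of Mrps27 at chr13:99352930-99353774, 7.39 kb from the start. It had 20.95 in replicate 1 and 21.2 in replicate 2, above the promoter of the same gene (19.6 and 19.7) in both replicates. The other 4 of the strongest 5 lie in or near other genes. A region 30.1 kb from Mrpl34, in an intron of Gtpbp3, a mitochondrial transfer RNA modifying enzyme, had 19.3 and 18.3, while the Mrpl34 promoter had 8.33 and 8.28. Others were 13.1 kb from Mrpl9 (17.2 and 17.2, nearest gene Oaz3), 31.8 kb from Mrpl1 (17.7 and 16.6, nearest gene Cnot6l) and 38.8 kb from Mrps15 (17.2 and 16.0, in an intron of Oscp1). Nearness alone does not link a region to a gene. Of the motifs searched, GATA matched at 21 of the 257 regions (8.17%, beside 9.27% of all distal regions), RUNX at 30 (11.7%, beside 10.3%) and ETS at 8 (3.11%, beside 2.42%). AP-1/NF-E2 matched at 19 (7.39%, beside 10.7%) and the strict CTCF pattern at 4 (1.56%, beside 3.11%), both shares below those of distal regions elsewhere.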

How the data were processed

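Processing was that of the authors up to the peak lists. Per the labels, peaks of each sample were called on mm10; the peak caller, the aligner and read depth are not given in the sources used here. The deposited lists of pseudoreplicated peaks hold, in column 7, the fold enrichment over local background, a ratio, in columns 8 and 9 the −log10 p-value and −log10 q-value, and in column 10 the summit, taken from the peak format because no header defines them. No scaling between samples is stated, and all columns were mapped (0 left over).

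On chromosomes 1 to 19 and X, peaks of a sample that touched by 1 bp or more became 1 region with the fold enrichment and summit of the strongest, and a region was shared where those of both samples met by 1 bp or more. A gene with several promoter regions was given the strongest, and its summit came from the sample where it was stronger. GENCODE M21 gave transcript starts. Motifs were searched on both strands of the reference genome. Rps19bp1 was left out of the cytosolic list as an added alternative. Mtres1 and Gtpbp5 were not matched to the annotation. Members and lists were chosen with earlier results of these data known. Named genes were the 8 highest and 8 lowest by mean fold enrichment, the extremes between replicates (3 each way), those with most distal regions, the strongest 5 distal regions, the 5 partnered genes of highest value, 3 holders of each of 4 motifs, genes with an internal strongest start and, of related lists, the 2 highest and any without a region. SDs over n = 2 measure the spread between samples that share a donor record. Scripts were tested on simulated data and used Python 3.11.15, pandas 2.3.3, numpy 2.4.6, pysam 0.24.0, samtools 1.23.1 and matplotlib 3.10.9. Alternatives were other peak lists, overlaps, windows, starts, strength measures and single replicates.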

Additional observations from a re-analysis of the deposited data

How the results depend on the processing

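No paired analysis was possible because there was 1 group. Of the alternative values for the main counts and for the median log2 ratio between replicates, 47 stayed within their limit and 6 did not. The limit was 1.5-fold for counts and, for the log2 ratio, its SD across the 78 genes (0.109). The log2 ratio by −log10 p was within that limit although its sign changed. Of the alternative values for the other medians, the percentiles and the means per gene, 8 stayed within the replicate spread and 23 did not. The distal regions within 50 kb (257) became 109 with the lists thresholded on the irreproducible discovery rate (IDR), 103 within 20 kb, 503 within 100 kb and 73 where the member had to be the nearest coding gene. With 50 bp to each side of the summit, NRF1 matched at 5 genes and YY1 at 6 (12 each at 100 bp), where fewer bases were searched. The number of open promoters was 78 with replicate 1 alone (beside 60.9% of all protein-coding genes) and with replicate 2 alone (beside 61.3%). It was 75 with the IDR lists (beside 53.0%) and 77 with 50% reciprocal overlap (beside 58.4%). With the 5′ end as the only start it was 76 (beside 54.4%). With each replicate left out, 41 to 41 genes reached the upper quartile, distal regions numbered 279 to 294, and NRF1, ETS, YY1 and SP/KLF matched at 12, 29, 12 and 38 to 39 genes. Ranked by −log10 p in place of fold enrichment, the median percentile of the set among open promoters was 62.1 in place of 77.0, and 30 in place of 42 genes reached the upper quartile. The cause was not tested. The median log2 ratio of replicate 2 over replicate 1 was 0.047 by −log10 p (beside 0.053 over open promoters). By fold enrichment it was −0.03 (beside −0.04), so which replicate was higher depended on the measure. Partners numbered 25 within 500 bp (beside 8.98% of all protein-coding genes), 35 within 2 kb (beside 12.3%) and 37 with any annotated gene (beside 18.6%). From the start nearest the summit, a setting chosen after seeing the data, they numbered 32 (beside 17.7% of open promoters). Depth is unknown, so it cannot be said how much of a low value such as that of Mrps34 is limited by it.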

Other observations

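The following was looked at after the sequences were seen. The YY1 pattern AAGATGGC contains ATG, and at 9 of the 12 genes with a match this ATG is an annotated start codon, of the gene itself at 6 (Mrpl35, Mrps27, Mrps18a, Mrpl46, Mrps24 and Mrps10) and of the divergent partner at 3 (Mrps11, Mrps12 and Mrpl36, with the start codons of Mrpl46, Sars2 and Ndufs6). Since Mrpl46 and Mrps11 share a match, these are 8 of 11 distinct sites. Over all open promoters with the pattern, 246 of 560 (43.9%) had it at a start codon, beside 75% of the 12 genes. The match of Mrpl37 and that of Mrps36 were not at an annotated start codon, nor was that of Mrpl42. The matches lay on the strand of the gene at 9 of 12 genes, with a median position 21 bp after the start. By contrast, NRF1 matches had a median position of −2.5 bp (6 of 12 on the strand of the gene) and ETS matches of −5 bp (17 of 29 on that strand).

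3 of the 5 strongest distal regions near the genes held a looser CTCF-like pattern (CCA, any 2 bases, AG, any 2 bases, GGC), chosen after their sequences were seen. CTCF is the factor known for marking domain borders. The stretches are from mm10, plus strand, with the pattern in capitals, and are shown because these regions lie near the genes but closer to others.
Near Mrpl34, chr8:71495094-71495153: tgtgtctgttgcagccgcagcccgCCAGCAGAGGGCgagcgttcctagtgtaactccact
Near Mrpl9, chr3:94456586-94456645: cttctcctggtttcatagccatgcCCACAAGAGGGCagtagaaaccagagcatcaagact
Near Mrps15, chr4:126086119-126086178: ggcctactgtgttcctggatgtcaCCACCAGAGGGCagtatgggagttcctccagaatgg
The pattern matched within 100 bp of the summit at 42 of the 257 regions (16.3%, beside 11.6% of all distal regions). Regions with it had a median fold enrichment of 7.66 and those without 7.10, beside 7.94 and 6.99 over all distal regions. The stricter CTCF pattern went the other way, at 4 of the 257 regions (1.56%, beside 3.11%), so the direction depends on the pattern. The strongest region, in the intron of Mrps27, held neither CTCF pattern, and of the 16 patterns only NFY matched there, 3 times.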
